A study of Mus musculus with 6 samples.

Results

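The genes examined here encode the mitochondrial protein import machinery, the complexes that shape the cristae, and the chaperones and proteases that keep proteins inside the organelle in order. They were chosen by symbol, as all Timm and Tomm genes followed by a digit together with Pam16, Grpel1, Grpel2, Samm50, Mtx1, Mtx2, Pmpca, Pmpcb, Immt, Apoo, Apool, Chchd3, Chchd4, Chchd6, Gfer, Hspd1, Hspe1, Hspa9, Lonp1, Clpp, Clpx, Phb, Phb2, Afg3l2, Spg7 and Htra2. The rule took 51 of the 24411 genes of the table. One of them, Tomm6os, is by its name an antisense transcript of Tomm6 and encodes no import component. RNA was sequenced from extensor digitorum longus (EDL), a fast-twitch muscle of the hindlimb, of C57BL/6J mice aged 50 weeks. The 3 mAktDKO mice carried floxed Akt1 and Akt2 alleles together with a Cre recombinase expressed from the Mlc1f locus, and the 3 control mice carried the floxed alleles. The Cre acts mainly in fast-twitch fibres, so other cells of the muscle still have both kinases, and the comparison shows how these genes differ in a fast muscle in which Akt1 and Akt2 are targeted.

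Nearly all mitochondrial proteins are encoded in the nucleus, made in the cytosol and imported. The TOM complex is the entry gate of the outer membrane, from which the SAM complex receives barrel proteins, the small TIM chaperones of the intermembrane space guide membrane proteins, the TIM22 and TIM23 complexes insert or translocate proteins at the inner membrane, and an Hsp70 motor completes the pull into the matrix. The presequence is then removed, the chaperonin folds the protein, MICOS holds the cristae junctions, and proteases with the prohibitin scaffold remove what is damaged or in excess.

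The 6 libraries had between 13738795 and 15445523 estimated counts, a depth at which 3 counts equal 0.194 to 0.218 CPM of the library total (counting error only). Levels of genes are given as CPM with the library totals scaled by the TMM method. The control columns carry the numbers 2 to 4, which name columns of the group and not the labelled mice. The control column numbered 2 stood apart from the other controls (chi-square per degree of freedom of the counts 26.9 and 27.7, against 10.8 for the other two). Of the targeted genes, Akt2 had 51.3, 49.1 and 52.7 CPM in mAktDKO and 172, 133 and 143 CPM in control mice (log2 fold change -1.55, edgeR adjusted p = 0.000923). Akt1 had 58.9, 56.8 and 51.4 against 66.4, 65.5 and 66.5 CPM (log2 fold change -0.25, edgeR adjusted p = 0.115). Both were lower in each mAktDKO mouse, and counts per gene do not show how much of the floxed exons was lost. The labelled muscle was reflected in the 11 fast fibre markers, which summed to 134000 to 150000 CPM in mAktDKO and 155000 to 166000 CPM in control mice, against 680 to 1320 and 607 to 884 CPM for 7 slow fibre markers. By gene, all 11 fast fibre markers had a log2 fold change below 0 (9 with library totals, 10 without mAktDKO mouse 2 or control mouse 3). Their median was -0.22, or -0.083 with library totals. Of the 11, 7 (63.6%) were lower without overlap, against 16.6% of all tested genes. None was called by edgeR, although 4 had an unadjusted p under 0.05 and DESeq2 called 4. Under other settings edgeR called 2 with no filter on low counts, 2 with at least 10 counts in every mouse and 1 without control mouse 4. Of the slow fibre markers 6 lay above 0 (median 0.44), with 2 at an unadjusted p under 0.05, none called by edgeR and overlapping groups for each. That median was 0.27 without mAktDKO mouse 2 and 0.67 without control mouse 3. The part of the fibre markers in the differences of the import, cristae and quality control genes was not tested.

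Promoter sequence is shown first for 6 of the genes, picked as examples of matches to motifs long associated with nuclear genes for mitochondria and with chaperone induction. Other members also hold such matches before their start. The windows are RefSeq promoters (GRCm38.p6, 250 bases before to 50 bases after each start), and 44 of the 51 genes matched with 48 windows. Afg3l2, Grpel2, Hspa9, Htra2, Timm21, Tomm40l and Tomm7 had none. Capitals mark the motif, and each stretch reads 5′ to 3′ on the strand of the gene. The first pair holds the NRF1 core (GCATGCGC or its reverse complement GCGCATGC), in Timm13 at chr10:80901114-80901201, minus strand, and in Grpel1 at chr5:36465139-36465166, plus strand.
Timm13: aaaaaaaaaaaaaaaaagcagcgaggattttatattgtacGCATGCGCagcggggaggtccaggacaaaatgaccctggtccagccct
Grpel1: aggggcgtccGCGCATGCtcagtgtggg
The next 3 hold the ETS core (CCGGAAG or CTTCCGG), the letters read by factors of the GABP kind, in Mtx2 at chr2:74825779-74825801, plus strand, in Timm23 at chr14:32201922-32201948, minus strand, and in Immt at chr6:71831190-71831218, plus strand.
Mtx2: cggagcagCCGGAAGtgccggcg
Timm23: gcgcttcccaCTTCCGGgccgcacaca
Immt: ccaagcgcgacCCGGAAGgagaacctgcc
The last holds the heat shock element (TTC, GAA and TTC, each 2 bases apart, or its reverse complement) of Hspe1 at chr1:55088051-55088079, plus strand. Hspe1 and Hspd1 are transcribed in opposite directions from overlapping ends, and the same stretch lies in a window of Hspd1.
Hspe1: acggtccgTTCTAGAACCTTCCGGAAggc

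The motif of Timm13 began 192 bases before the start, that of Grpel1 36 bases, those of Mtx2, Timm23 and Immt 25, 47 and 119 bases, and that of Hspe1 89 bases. These distances are from the RefSeq start of the window. In Immt the start of the gene position given below differs from it and lies upstream of the motif. In Hspe1 the capitals are 2 overlapping matches of the heat shock element, and the ETS core overlaps them. Of the 43 protein-coding members with a window, 19 (44.2%) held the ETS core on either strand anywhere in the 300 bases, against 12.9% of 17492 protein-coding genes and 19.4% of the 10006 that were tested for expression here. The NRF1 core was in 3 members, Timm13, Grpel1 and Clpx (6.98%, against 3.94% of protein-coding genes and 5.9% of the tested ones). The heat shock element was in Hspd1, Hspe1 and Timm9 (6.98%, against 0.595% and 0.58%), of which the pair shares a single stretch. Among tested members with a window, the median log2 fold change was -0.20 for the 18 with the ETS core and -0.33 for the 23 without, and among the tested protein-coding genes it was -0.04 for 1942 with and 0.02 for 8064 without. A match describes letters only, and binding was not measured.

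Across the 48 members that passed the filter on low counts, most transcript levels lay lower in mAktDKO than in control EDL, with log2 fold changes (mAktDKO minus control) from -0.70 for Timm13 to 0.11 for Timm21. Of these 48, 45 had a log2 fold change below 0, against 47.5% of all 12892 tested genes, although only 37 did when libraries were scaled to their totals alone. In 32 of the 48 (66.7%) all 3 mAktDKO mice lay below all 3 control mice, whereas this held for 16.6% of all tested genes. No member was higher in all mAktDKO mice, against 14.6% of all tested genes. The median log2 fold change was -0.26 for the members and 0.02 for all tested genes. With library totals the medians were -0.12 and 0.16, and 9 members were lower without overlap (6.9% of all genes), so the distance of the members from all genes, -0.28, was the same under both scalings. A level here is therefore relative to the other genes of the same library. The members' transcripts were shorter than those of all tested genes (median 1667.5 against 2777 bases), and short transcripts lay lower in these data, with a trend of -0.10 at 1000 bases and 0.07 at 4000 bases. With that trend removed the members' median was -0.20. Without the control column numbered 2, which stood apart, the members' median was -0.25, 42 of the 48 lay below 0 and 33 were lower without overlap (19.6% of all genes).

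By single genes, the quasi-likelihood test of edgeR, adjusted over all tested genes, called 1 of the 48 members, Timm13, at an adjusted p under 0.05. At that threshold 1.18% of all tested genes were called, 0.915% as lower and 0.264% as higher. No member reached 0.01 (0.0233% of all tested genes did). Without adjustment 27 members had p under 0.05 on the lower side and 0 on the higher side, against 13.1% and 11.4% of all genes. With library totals, 7 members had an unadjusted p under 0.05. At an adjusted p under 0.1, 12 of the 48 were lower, against 5.38%. With DESeq2, 10 members were lower at an adjusted p under 0.05 (5.49% of 9616 genes) and 2 at 0.01 (2.61%). The 10 were Timm13, Afg3l2, Timm23, Samm50, Lonp1, Mtx2, Immt, Phb, Timm17a and Tomm7. Leaving out the control mouse numbered 4 gave 4 calls with edgeR (Afg3l2, Mtx2, Timm13 and Timm23), where 2.96% of all tested genes were called. Leaving out any other mouse gave 0, with 0.023% to 1.1% of all tested genes called.

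The members together lay lower in each mAktDKO mouse than in any control mouse, by an amount that varied between mice. The mean of the 48 members, as log2 distance from the control mean, was -0.19, -0.29 and -0.27 in the mAktDKO mice 1 to 3 and 0.07, 0.01 and -0.08 in the control mice 2 to 4. The mAktDKO mice had 44, 44 and 45 of the 48 members below the control mean, while the control mouse numbered 4, the lowest of its group, had 36. In bulk RNA, fewer fast fibres and less of these transcripts in each fibre cannot be told apart. Of the marker lists of other cells, 6 fibroblast markers summed to 27700 to 33600 CPM in mAktDKO and to 10800 to 27100 CPM in control mice without overlap, although none of the 6 was called. The 10800 CPM came from control mouse 2. All 6 lay above 0 (median 0.57), 3 of them higher without overlap (14.6% of all tested genes). Without control mouse 2 the median was 0.27 and 5 lay above 0. Under other settings edgeR called 1 of the 6 with library totals, with no filter on low counts, with at least 10 counts in every mouse and without control mouse 4. The sums of the other lists overlapped between the groups, with 181 to 317 and 154 to 208 CPM for 6 adipocyte markers. By gene, all 6 adipocyte markers had an unadjusted edgeR p under 0.05 on the higher side (11.4% of all tested genes) and a median log2 fold change of 0.94, with 16.9, 21.9 and 5.69 against 5.94, 4.60 and 9.53 CPM for Adipoq, although none passed the adjusted threshold. All 7 macrophage markers had a log2 fold change above 0 (6 without mAktDKO mouse 1 or control mouse 2), 3 of them higher without overlap (14.6% of all tested genes). Macrophage markers (7 genes) summed to 127 to 156 and 87.9 to 137 CPM, endothelial (7 genes) to 484 to 579 and 410 to 536, mural (4 genes) to 532 to 611 and 465 to 544, Schwann (4 genes) to 234 to 319 and 213 to 251, and blood (3 genes) to 37.5 to 163 and 56.8 to 121 CPM. No marker was at 0 in every mouse. Hbb-bs, whose reads can be split with near-identical globin genes, had 9.23 to 23.5 CPM in the mAktDKO mice and was listed at 0 in the 3 control mice. It was the one marker called in the main fit, with TMM scaling, the main filter on low counts and all 6 mice (edgeR adjusted p = 0.018). Since it passed the filter on low counts through the mAktDKO mice alone, that call is not read for a difference. The call was also lost without mAktDKO mouse 2 or 3. The part of the markers of other cells in the result was not tested.

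**Figure D1:**
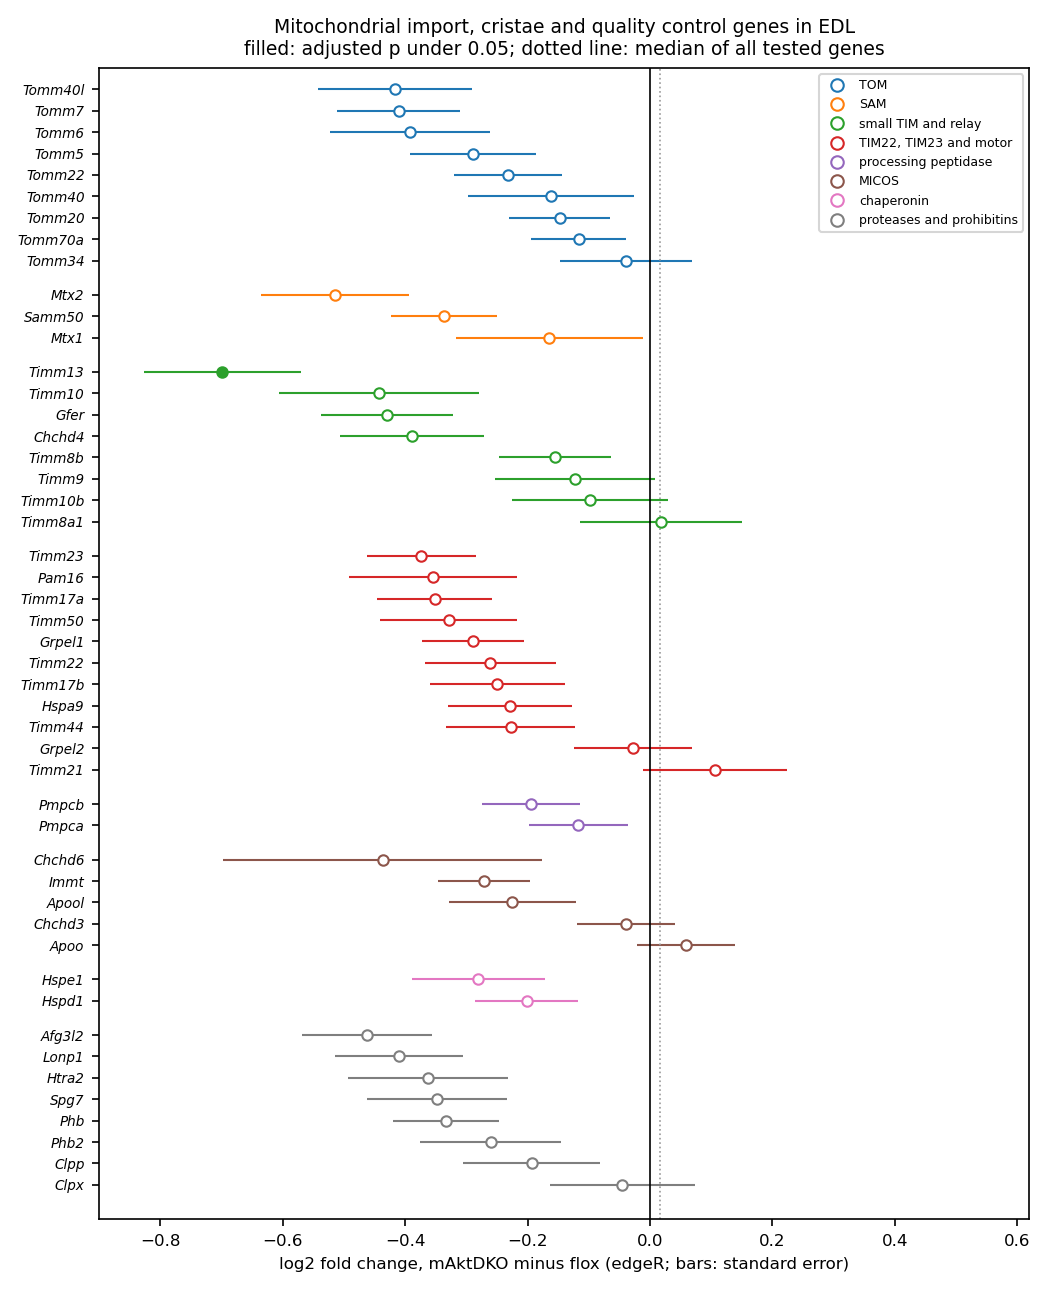
Log2 fold change of the 48 tested members (x axis, mAktDKO minus control floxed, labelled flox) by role, with the standard error from edgeR as bars. Filled points mark an adjusted p under 0.05, which only Timm13 has, and 45 of the 48 points lie left of 0.

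**Figure D2:**
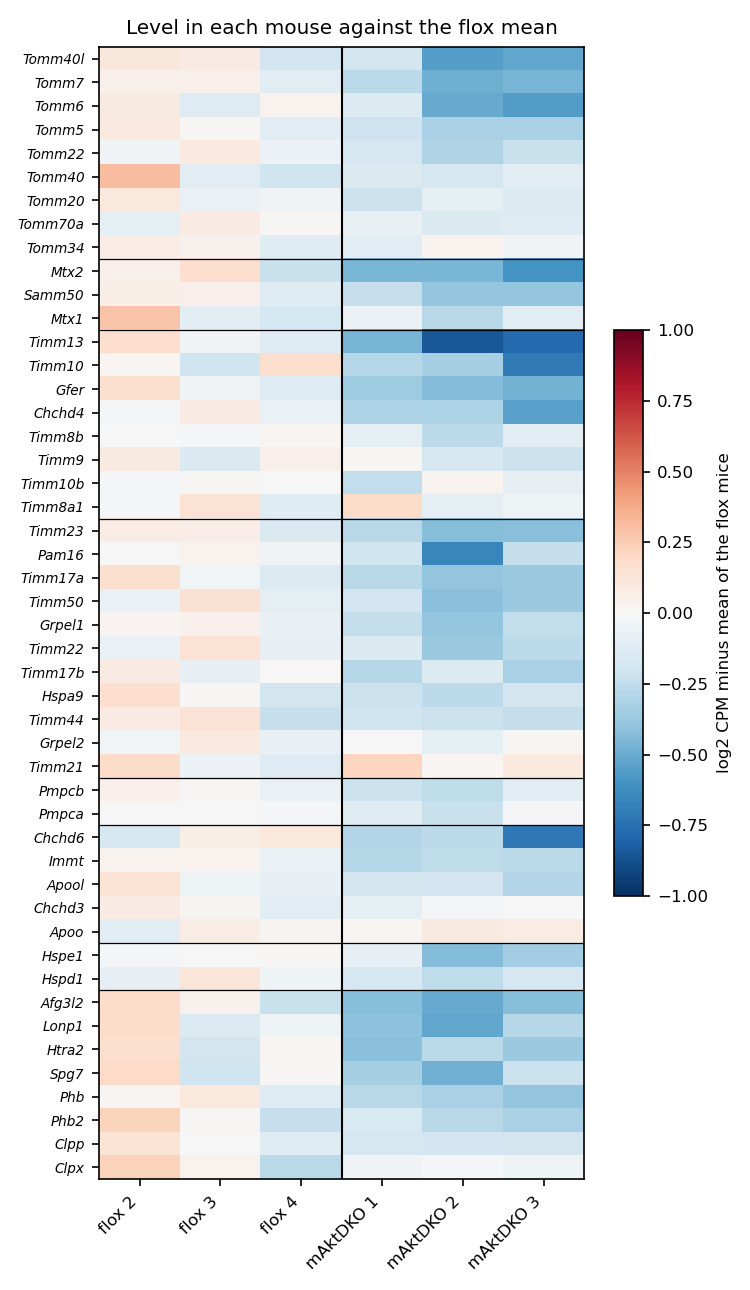
Log2 CPM of each tested member in each mouse, minus the mean of the control mice (colour scale, log2 units), with rows grouped by role as in the plot of fold changes. The 3 mAktDKO columns are blue in most rows, and the control column numbered 4 holds more blue than the other controls, with 36 of 48 members below the control mean.

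Per length of transcript, the most abundant member in control EDL was Timm23 (169 CPM per kilobase), followed by Hspa9 (138), Immt (111) and Chchd3 (92.5 CPM per kilobase), and the least abundant tested member was Chchd6 (1.75 CPM per kilobase). These levels rest on the median length of annotated protein-coding transcripts, not on the isoforms used in EDL.

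The small TIM proteins are chaperones of the intermembrane space that work as hexamers, Timm8a1 or Timm8b with Timm13 and Timm9 with Timm10. Timm13 (chr10, 80899450 to 80900969, minus strand, GRCm38) fell by 38.4% in mAktDKO, the largest difference of the 48. It had 21.4, 16.4 and 17.2 CPM in mAktDKO mice and 33.3, 28.8 and 27.0 CPM in control mice. The highest mAktDKO mouse lay below the lowest control mouse, and the means were 18.3 ± 2.68 and 29.7 ± 3.27 CPM (SD, n = 3 each). The log2 fold change was -0.70 (standard error 0.13), with an edgeR adjusted p of 0.0474 and a DESeq2 adjusted p of 0.000728. The edgeR call was lost without mAktDKO mouse 1, 2 or 3 (adjusted p 0.0966, 0.22 and 0.117) or control mouse 2 or 3 (0.0535 and 0.0911), and with library totals (0.0626) or upper-quartile scaling (0.0501), and over the alternatives of that test the adjusted p ran from 0.0237 to 0.22. The log2 fold change stayed between -0.83 and -0.61 with each mouse left out, and DESeq2 called Timm13 in all 6 of those fits (adjusted p 0.000246 to 0.0333). Exons of Timm13 share 43 bases with Tmprss9 on the other strand, and reads of such overlaps cannot be told apart unless the counting used the strand, which is not given in the sources used here. Timm8b, its partner, had 19.9, 17.7 and 19.6 against 21.2, 21.0 and 21.5 CPM, also without overlap but by a log2 fold change of -0.16 (-0.01 with the trend with transcript length removed). Timm8a1, the X-linked counterpart of Timm8b, had 9.38 ± 1.00 against 9.26 ± 0.885 CPM (SD, n = 3 each), with groups that overlapped.

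Chchd4 and Gfer form the disulfide relay that traps small cysteine-rich proteins, the small TIMs among them, in the intermembrane space. Gfer, the sulfhydryl oxidase of the relay, had 14.6, 13.8 and 13.4 CPM in mAktDKO and 21.0, 18.3 and 17.1 CPM in control mice, with a log2 fold change of -0.43 (standard error 0.11, edgeR adjusted p = 0.0725). Chchd4, its substrate and the receptor of the pathway, had 9.38, 9.34 and 7.95 against 11.5, 12.3 and 11.1 CPM, a log2 fold change of -0.39 (standard error 0.12, edgeR adjusted p = 0.103). In both genes every mAktDKO mouse was below every control mouse, and neither passed the threshold. Timm10 had 6.25 ± 0.968 against 8.52 ± 1.12 CPM without overlap, while Timm9 (7.79 ± 0.679 against 8.48 ± 0.724 CPM) and Timm10b (7.38 ± 0.715 against 7.91 ± 0.0666 CPM, SD, n = 3 each) overlapped, with log2 fold changes of -0.12 and -0.10 that turned above 0 with library totals. In all, 7 of the 8 tested genes of this group lay below 0 and 5 were lower without overlap, against 47.5% and 16.6% of all tested genes.

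At the outer membrane, the 9 tested TOM genes all had a log2 fold change below 0 (median -0.23), 5 of them without overlap (16.6% of all tested genes), although with library totals those of Tomm34 and Tomm70a lay above 0. Tomm7, Tomm6 and Tomm5 are the small subunits that stabilise the pore. Tomm7 had 21.7, 18.6 and 18.9 CPM in mAktDKO and 27.2, 27.2 and 24.4 CPM in control mice (log2 fold change -0.41, standard error 0.10, edgeR adjusted p = 0.0684). Tomm6 had 16.7 ± 2.80 against 22.0 ± 1.71 CPM (SD, n = 3 each, log2 fold change -0.39, edgeR adjusted p = 0.126), with the highest mAktDKO mouse just under the lowest control mouse. Tomm5 had 12.6 ± 0.617 against 15.4 ± 1.07 CPM (SD, n = 3 each), again without overlap. Tomm6 overlaps Tomm6os by 219 exonic bases.

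The pore itself, Tomm40, had 18.1, 17.8 and 18.6 CPM in mAktDKO and 24.8, 18.6 and 17.5 CPM in control mice, so that a single control mouse was high and the groups overlapped. Without control mouse 2 its log2 fold change moved from -0.16 to 0.01. Its paralog Tomm40l had 33.4, 25.9 and 26.5 against 41.1, 40.1 and 33.3 CPM (log2 fold change -0.42, standard error 0.13, edgeR adjusted p = 0.103), where the highest mAktDKO mouse reached the lowest control mouse. Tomm40l shares 2160 exonic bases with Nr1i3 on the other strand. Among the receptors, which read targeting signals on the cytosolic side, Tomm20 had 53.0 ± 2.30 against 58.7 ± 3.82 CPM, Tomm22 24.6 ± 1.13 against 28.9 ± 1.69 CPM and Tomm70a 87.5 ± 2.21 against 94.8 ± 5.63 CPM (SD, n = 3 each). Tomm20 and Tomm22 were lower without overlap, and Tomm70a was not. Tomm34, a cytosolic partner of import, had 12.3 ± 0.638 against 12.6 ± 0.892 CPM.

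The SAM complex inserts barrel proteins, Tomm40 included, into the outer membrane. Mtx2 (chr2, 74825812 to 74876748), a metaxin subunit, had 14.3, 14.3 and 13.0 CPM in mAktDKO and 20.4, 22.2 and 16.9 CPM in control mice (log2 fold change -0.51, standard error 0.12, edgeR adjusted p = 0.0637, DESeq2 adjusted p = 0.0262). Samm50, the barrel of the complex, had 111, 99.3 and 99.2 against 136, 135 and 119 CPM (log2 fold change -0.34, standard error 0.087, edgeR adjusted p = 0.0752, DESeq2 adjusted p = 0.0222). Both were lower in each mAktDKO mouse than in any control mouse. Mtx1, the partner metaxin, had 8.94, 7.67 and 8.64 against 11.4, 8.61 and 8.24 CPM, and its groups overlapped.

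Of the 11 genes of the inner membrane translocases and their motor, 10 had a log2 fold change below 0 (9 with library totals, where Grpel2 lay above 0) and 8 were lower without overlap, against 16.6% of all tested genes (median -0.26). Timm23 (chr14, 32180166 to 32201891, minus strand), the channel of the presequence pathway, had 108, 97.7 and 98.2 CPM in mAktDKO and 138, 137 and 119 CPM in control mice (log2 fold change -0.37, standard error 0.089, edgeR adjusted p = 0.066, DESeq2 adjusted p = 0.0118), and -0.24 once the trend of log2 fold change with transcript length was removed. Timm17a, which forms the core with Timm23, had 58.5, 54.0 and 54.9 against 79.4, 69.6 and 64.6 CPM (log2 fold change -0.35, edgeR adjusted p = 0.0807), and its paralog Timm17b had 10.2, 11.3 and 9.94 against 13.2, 11.7 and 12.5 CPM. None of these genes overlapped between the groups, and none passed the edgeR threshold. Timm50, the receptor of the complex, had 14.7 ± 1.23 against 18.4 ± 1.76 CPM, and Timm22, the channel for carrier proteins, 18.2 ± 1.47 against 21.8 ± 1.95 CPM (SD, n = 3 each), both without overlap. Timm21, which links TIM23 to the outer membrane and to respiratory complexes, was the exception, with 16.0, 13.9 and 14.7 against 15.6, 13.2 and 12.6 CPM, overlapping groups and a log2 fold change of 0.11.

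In the motor, Hspa9, the matrix Hsp70, had 360, 349 and 369 CPM in mAktDKO and 471, 422 and 370 CPM in control mice, so that control mouse 4 lay just above the highest mAktDKO mouse (log2 fold change -0.23, edgeR adjusted p = 0.202, and -0.14 without control mouse 2). Grpel1, the nucleotide exchange factor of Hspa9, had 36.8, 33.2 and 36.6 against 44.3, 44.8 and 41.3 CPM (log2 fold change -0.29, standard error 0.083, edgeR adjusted p = 0.0938). Its paralog Grpel2 had 16.7, 15.7 and 16.8 against 16.4, 17.9 and 15.9 CPM, with groups that overlapped throughout and a log2 fold change of -0.03 that was 0.11 with library totals. Pam16, a regulator of the motor, had 10.4 ± 1.73 against 13.2 ± 0.321 CPM without overlap, and Timm44, which tethers Hspa9 to the channel, 37.4 ± 0.516 against 43.8 ± 5.84 CPM (SD, n = 3 each) with overlap.

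**Figure D3:**
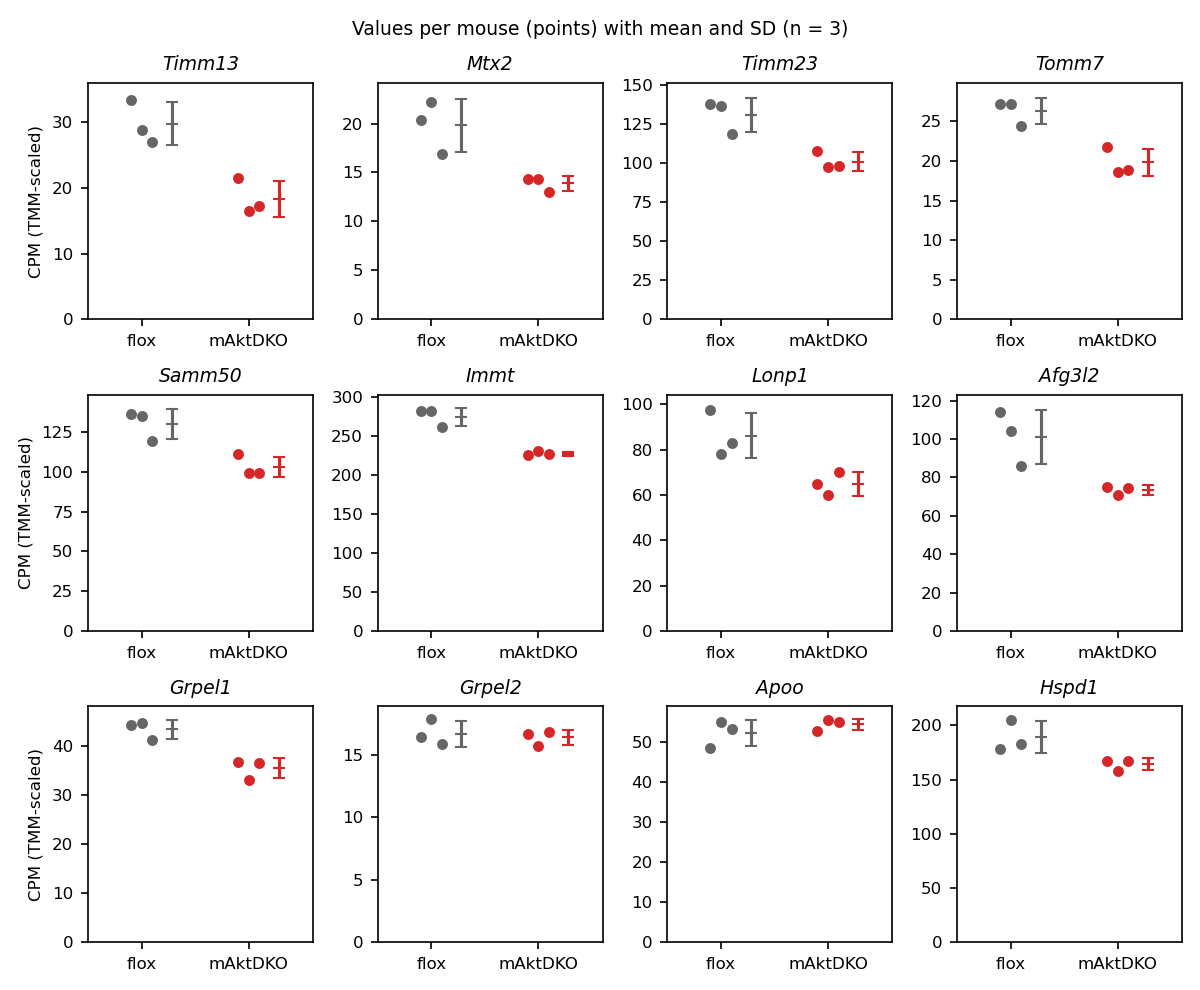
CPM (y axis, TMM-scaled, from 0) of 12 members in each mouse, with the group mean and SD (n = 3) beside the points, control mice (flox) in grey and mAktDKO mice in red. Timm13 has the largest fold difference of the 12 (16.4 to 21.4 against 27.0 to 33.3 CPM), while Grpel2 and Apoo overlap.

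The matrix processing peptidase, which cuts off presequences, differed little. Pmpcb, its catalytic subunit, had 49.3, 48.1 and 53.2 CPM in mAktDKO and 59.5, 57.9 and 55.0 CPM in control mice, without overlap (log2 fold change -0.19, edgeR adjusted p = 0.177). Pmpca, its other subunit, had 135, 125 and 146 against 147, 147 and 146 CPM, where mAktDKO mouse 3 reached the level of the controls, and its log2 fold change of -0.12 was 0.02 with library totals. Exons of Pmpca share 874 bases with Inpp5e on the other strand.

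The chaperonin genes Hspd1 (Hsp60) and Hspe1 (Hsp10) encode the barrel and the lid of the folding chamber of the matrix. Hspe1 (chr1, 55088148 to 55091317) had 23.9, 18.6 and 19.8 CPM in mAktDKO and 25.0, 25.2 and 25.5 CPM in control mice (log2 fold change -0.28, standard error 0.11, edgeR adjusted p = 0.161). Hspd1 (chr1, 55077833 to 55088243, minus strand) had 167, 158 and 167 against 178, 205 and 183 CPM (log2 fold change -0.20, standard error 0.084, edgeR adjusted p = 0.182). Both were lower in each mAktDKO mouse and neither passed the threshold. Of the 8 tested subunits of the cytosolic chaperonin, which folds proteins outside mitochondria, 0 were called and 6 were lower without overlap (1.18% and 16.6% of all tested genes), with a median log2 fold change of -0.15.

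MICOS bends the inner membrane at the cristae junctions. Immt (mitofilin, chr6, 71831091 to 71875266), its core, had 225, 230 and 227 CPM in mAktDKO and 281, 281 and 261 CPM in control mice, a narrow spread in both groups without overlap (log2 fold change -0.27, standard error 0.075, edgeR adjusted p = 0.0856, DESeq2 adjusted p = 0.0272). Apool had 14.9, 14.8 and 13.8 against 18.6, 16.3 and 16.0 CPM (log2 fold change -0.23, edgeR adjusted p = 0.216). Chchd6, the least abundant, had 1.52, 1.56 and 1.10 against 1.68, 1.97 and 2.04 CPM on 16 to 27 counts in a mouse (log2 fold change -0.44, standard error 0.26, edgeR adjusted p = 0.321). These 3 of the 5 MICOS genes were lower without overlap (16.6% of all tested genes), but none passed the edgeR threshold. Chchd3, the abundant relative of Chchd6, had 127, 133 and 134 against 142, 137 and 125 CPM, and Apoo had 52.9, 55.5 and 55.1 against 48.6, 55.1 and 53.2 CPM, so that both overlapped between the groups, with log2 fold changes of -0.04 (0.10 with library totals) and 0.06. The estimated counts of Apoo were not whole in all 6 libraries, so some of its reads were shared with another gene and its level is uncertain.

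All 8 genes of the proteases and prohibitins had a log2 fold change below 0 (median -0.34), 6 of them without overlap (16.6% of all tested genes), although that of Clpx was 0.10 with library totals. Afg3l2 (chr18, 67404764 to 67449192), a subunit of the matrix-facing AAA protease, had 74.9, 70.6 and 74.7 CPM in mAktDKO and 114, 104 and 86.0 CPM in control mice (log2 fold change -0.46, standard error 0.11, edgeR adjusted p = 0.0613, DESeq2 adjusted p = 0.00584). Its partner Spg7 (paraplegin) had 55.8, 50.3 and 60.5 against 80.1, 61.2 and 70.7 CPM, with the highest mAktDKO mouse just under the lowest control mouse. Lonp1, the main protease of the matrix, had 64.7, 59.8 and 70.3 against 97.5, 78.1 and 83.1 CPM (log2 fold change -0.41, standard error 0.10, edgeR adjusted p = 0.0733, DESeq2 adjusted p = 0.0176). The mAktDKO values of Afg3l2 lay within a narrow range, and the control values of all 3 genes were more spread.

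Phb, a ring-forming prohibitin of the inner membrane, had 78.4, 75.9 and 72.0 CPM in mAktDKO and 96.1, 102 and 86.8 CPM in control mice (log2 fold change -0.33, standard error 0.086, edgeR adjusted p = 0.0752, DESeq2 adjusted p = 0.0282). Phb2, with which it assembles, had 69.3, 63.7 and 61.6 against 89.8, 77.5 and 65.8 CPM, and overlapped through control mouse 4. Htra2, a protease of the intermembrane space, had 7.85 ± 0.432 against 10.1 ± 1.22 CPM, lower without overlap. Clpp, the proteolytic chamber of the ClpXP protease, had 10.5, 10.4 and 10.5 against 13.1, 11.9 and 10.9 CPM, and its unfoldase Clpx had 71.5, 72.7 and 70.6 against 86.1, 74.8 and 60.8 CPM. The spread of Clpx among control mice was wider than the difference, and without control mouse 2 its log2 fold change moved from -0.05 to 0.08.

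The ratio of paired genes within a mouse does not depend on how libraries are scaled. Of 17 pairs of partners or paralogs, 3 had a lower and 2 a higher ratio in every mAktDKO mouse than in any control mouse. The smallest p that 3 mice against 3 allow is 0.1 (exact permutation test, two-sided), so no pair could pass 0.05, and the smallest p adjusted over the 17 pairs was 0.34. The log2 ratio of Timm13 to Timm8b was 0.10, -0.11 and -0.19 in mAktDKO and 0.65, 0.45 and 0.33 in control mice, a difference of -0.54 (exact permutation p = 0.1). That of Grpel1 to Grpel2 was 1.14, 1.08 and 1.12 against 1.43, 1.32 and 1.37, a difference of -0.26 (exact permutation p = 0.1) with a narrow spread in both groups. With each mouse left out these differences ran from -0.63 to -0.46 and from -0.29 to -0.23. Timm13 and Grpel1 were thus each lower relative to the gene beside it. Exons of Grpel1 share 411 bases with Tada2b on the other strand, so the limit given for reads of Timm13 applies to Grpel1 too.

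The third pair with a lower ratio was Clpp to Clpx (-0.16), and the pairs with a higher ratio were Timm9 to Timm10 (0.32) and Apoo to Apool (0.28), each with an exact permutation p of 0.1. Single mice set the size of part of these, since the difference was 0.16 for Apoo to Apool without control mouse 2 and -0.087 for Clpp to Clpx without control mouse 4, while that of Timm9 to Timm10 stayed between 0.24 and 0.40 with each mouse left out. These 3 and the pair of Grpel1 and Grpel2 were named after their values were seen. Differences of similar size with overlapping groups were found for Chchd3 to Chchd6 (0.38, exact permutation p = 0.3) and Mtx1 to Mtx2 (0.36, exact permutation p = 0.2), which were 0.22 without mAktDKO mouse 3 and 0.21 without control mouse 3. The ratios that differed least were Tomm20 to Tomm70a (-0.03), Chchd4 to Gfer (0.03) and Immt to Samm50 (0.07), of which the first and the second took either sign with each mouse left out (-0.11 to 0.07 and -0.06 to 0.09). For Immt and Samm50, which meet in the bridge between the membranes, the log2 ratio was 1.02, 1.21 and 1.19 in mAktDKO and 1.04, 1.06 and 1.13 in control mice.

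**Figure D4:**
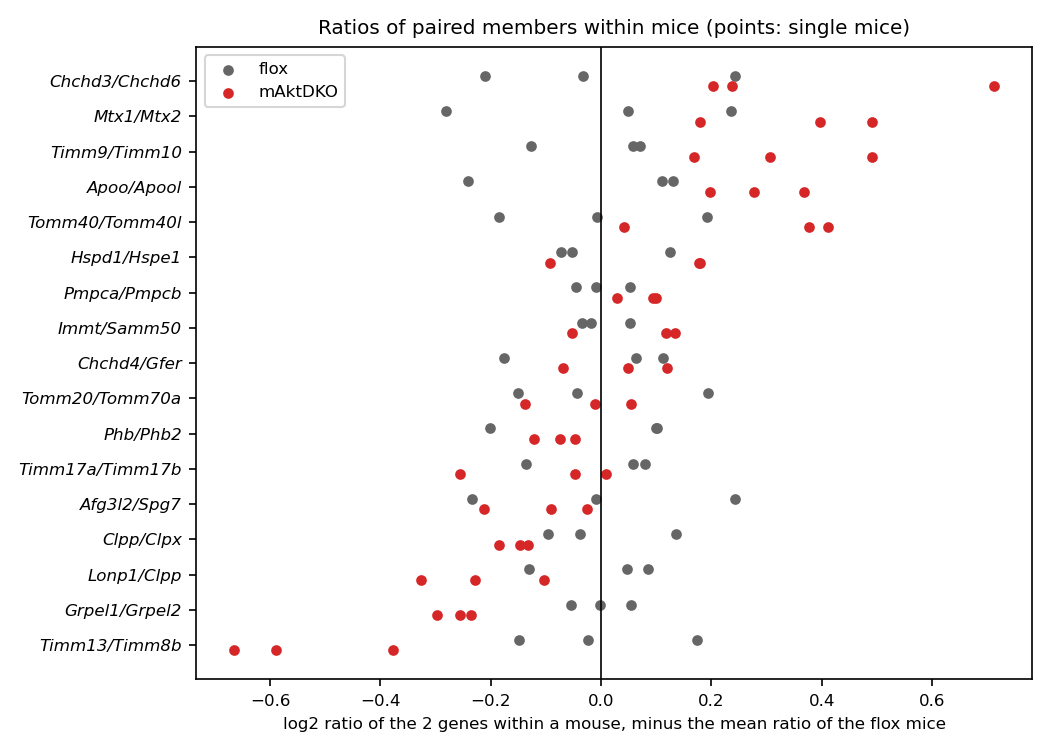
Log2 ratio of the genes of each pair within a mouse, minus the mean ratio of the control mice (x axis, log2 units), one point a mouse, control (flox) in grey and mAktDKO in red. The mAktDKO points of Timm13/Timm8b and Grpel1/Grpel2 lie left of all control points, and those of Timm9/Timm10 and Apoo/Apool lie right of them.

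The 3 members that failed the filter on low counts were Tomm20l and Timm8a2, paralogs of import genes, and Tomm6os. Tomm20l had 0 counts in all 6 libraries, and Timm8a2 had 1 count, in control mouse 3. Tomm6os had 5, 6 and 5 counts in mAktDKO and 1, 0 and 6 counts in control mice. None of them is read for a difference at this depth.

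Other genes of the same processes that the symbol rule did not take were examined as a list of 30, of which 29 were tested. Of these 22 had a log2 fold change below 0, 18 were lower and 2 higher without overlap, and 3 were called lower and 0 higher at an edgeR adjusted p under 0.05. Over all tested genes, 16.6% were lower and 14.6% higher without overlap, and 0.915% were called lower. Romo1, an inner membrane protein of the TIM23 complex, had 21.7, 15.3 and 16.0 CPM in mAktDKO and 31.4, 32.2 and 27.3 CPM in control mice (log2 fold change -0.78, standard error 0.14, edgeR adjusted p = 0.0474). Clpb, a disaggregase of the intermembrane space, had 34.9, 36.5 and 37 against 60.4, 53.0 and 46.3 CPM (log2 fold change -0.56, standard error 0.10, edgeR adjusted p = 0.0474). Minos1, the MICOS subunit now called Micos10, had 63.2, 54.7 and 59.1 against 81.2, 80.3 and 76.1 CPM (log2 fold change -0.43, standard error 0.082, edgeR adjusted p = 0.049). All 3 fell without overlap, and all 3 calls were lost without any one of the mAktDKO mice (edgeR adjusted p 0.0958 to 0.234) or control mouse 3 (0.0977 to 0.101) and with library totals (0.0628 to 0.0869), while those of Romo1 and Minos1 were also lost without control mouse 2 (0.0528 and 0.0614) and with upper-quartile scaling (0.0501 and 0.0538), and that of Minos1 with DESeq2 size factors (0.0515). With each mouse left out the log2 fold change ran from -0.95 to -0.68 for Romo1, from -0.65 to -0.46 for Clpb and from -0.48 to -0.37 for Minos1. The 2 that were higher in every mAktDKO mouse, Yme1l1, the AAA protease facing the intermembrane space (94.5, 102 and 96.3 against 78.9, 89.7 and 87.2 CPM), and Xpnpep3, an aminopeptidase, were named after their values were seen, and their edgeR adjusted p were 0.18 and 0.409.

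Other nuclear-encoded mitochondrial families were compared in the same way. The median log2 fold change was -0.26 for the 48 members, -0.27 for 77 mitochondrial ribosomal protein genes and -0.36 for 37 complex I subunit genes. Of the ribosomal protein genes 2 were called lower and 40 were lower without overlap, and of the complex I genes 9 were called lower and 30 were lower without overlap, against 0.915% and 16.6% of all tested genes. Without mAktDKO mouse 1, 2 or 3 or control mouse 3, none of either family was called, with 3 to 26 genes called over the whole table. With library totals 3 complex I and 0 ribosomal protein genes were called, without control mouse 4 the numbers were 15 and 8, and with no filter on low counts 17 and 7. They were 5 and 2 with upper-quartile scaling and 11 and 5 with at least 10 counts in every mouse. DESeq2 called 24 complex I and 13 ribosomal protein genes lower, against 5.49% of 9616 genes. The families were measured in the same mice and their medians were not tested against each other.

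**Figure D5:**
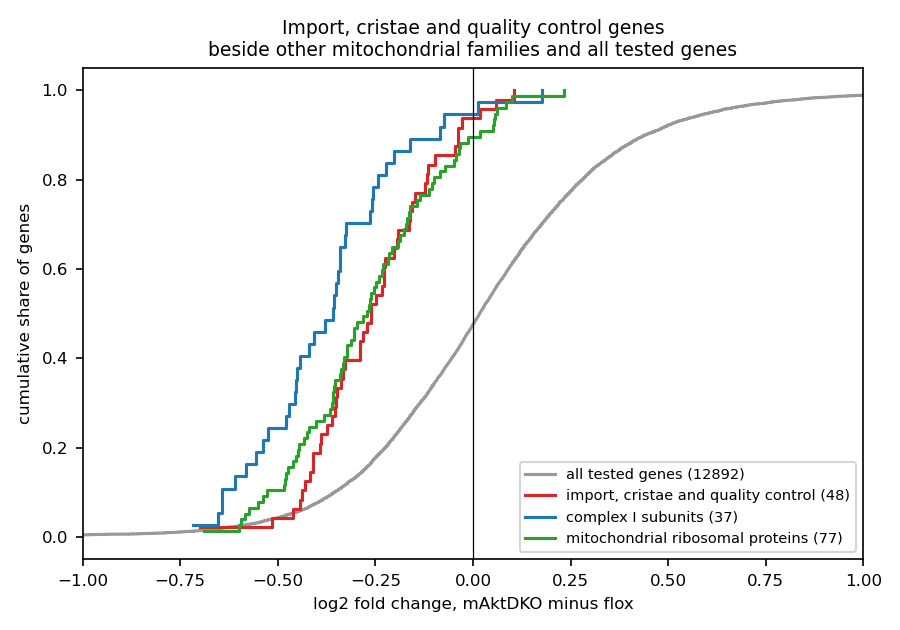
Cumulative share of genes (y axis) by log2 fold change (x axis, mAktDKO minus control floxed) for the 48 tested members, 37 complex I subunit genes, 77 mitochondrial ribosomal protein genes and all 12892 tested genes. The curve of the members runs close to that of the ribosomal protein genes (medians -0.26 and -0.27), with complex I further left (-0.36) and all genes centred near 0.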

How the data were processed

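EDL RNA of the 3 mAktDKO mice and the 3 floxed controls was depleted of ribosomal RNA and sequenced with paired-end reads of 37 bases. The authors mapped the reads to mm10 with STAR (2.6.1b in the submitters' processing notes) and deposited the estimated counts per gene of RSEM 1.3.1, with no scaling between mice. The annotation and the strand setting of the counting are not given in the sources used here. Exons of further members also overlap genes on the other strand, among them Htra2 (535 bases with Loxl3), Mtx1 (267 with Gm43737) and Immt (185 with Gm44771). The estimated counts were rounded. Genes were filtered with filterByExpr (minimum count 10) and scaled by TMM in edgeR 4.0.16 (R 4.3.3), and tested with its quasi-likelihood test without a covariate, with Benjamini-Hochberg adjustment over 12892 genes and a threshold of 0.05. DESeq2 1.42.0, the tool the authors used, was an alternative. Ratios within mice were compared by exact permutation. The p-values of edgeR and DESeq2 set the difference between the groups against the spread between the 3 mice of each group, estimated with information shared across genes. The steps were tested on simulated counts.

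The members and lists were chosen with earlier results of these data known. The named genes were every called member, the 3 members with the smallest p in each role, the pairs with the 3 largest and 3 smallest differences of ratio, the members that failed the filter, and, in the list of other pathway genes, the called ones. The remaining members are given in brief so that each is accounted for. Alternatives were other scalings, other filters, DESeq2, a threshold of 0.01 and leaving out each mouse, with removal of the trend with transcript length and DESeq2 without each mouse, and these settings for the other lists and the markers, added after seeing the data. Gene positions are from RefSeq, and transcript lengths and exon overlaps are from GENCODE, all on GRCm38 (mm10).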

Additional observations from a re-analysis of the deposited data

How the results depend on the processing

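The members' median log2 fold change stayed below 0 under every alternative run. It was -0.12 with library totals, from -0.31 to -0.23 with each mouse left out in turn, and between -0.27 and -0.20 otherwise. The number lower without overlap was 9 with library totals (6.9% of all genes), 33 to 40 with a mouse left out (18.8% to 23.7%), and 30 to 34 otherwise (13.6% to 17%). The number of members called, 1 with edgeR, was 0 with library totals, 0 with upper-quartile scaling, 2 with no filter on low counts, 0 at an adjusted p under 0.01, and 0 to 4 with each mouse left out. With DESeq2 it was 10, or 2 at an adjusted p under 0.01, and 7, 1 and 3 without mAktDKO mouse 1, 2 or 3 and 5, 4 and 14 without control mouse 2, 3 or 4, alternatives chosen after seeing the data. In these fits, in the same order, 5.14%, 2.12%, 5.89%, 5.72%, 6.05% and 10.3% of all genes with an adjusted p were called in either direction. The number called thus depends on the test and on single mice, and the cause was not tested.

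Of the tested values of single members under the alternatives, 540 kept their direction and side of the threshold, 13 passed it anew, 7 no longer passed it (all of Timm13) and 15 changed sign. Chchd6 had no adjusted p with DESeq2 and is not counted there. With library totals the log2 fold change was above 0 for Chchd3 (0.10), Clpx (0.10), Grpel2 (0.11), Tomm34 (0.10), Timm10b (0.041), Tomm70a (0.021), Timm9 (0.019) and Pmpca (0.018). With the length trend removed, added after seeing the data and with no test of its own, 40 members moved by less than 1 SD between mice, 5 by more without a change of sign, and 3 changed sign. The value was 0.050 for Chchd3, 0.036 for Timm10b and 0.0053 for Timm9, and the 5 were Timm23 (from -0.37 to -0.24), Tomm5 (from -0.29 to -0.15), Tomm22 (from -0.23 to -0.12), Timm8b (from -0.16 to -0.01) and Apoo (from 0.06 to 0.17). With each mouse left out it ranged from -0.092 to 0.0025 for Chchd3, from -0.17 to 0.077 for Clpx, from -0.065 to 0.022 for Grpel2, from -0.074 to 0.092 for Timm8a1 and from -0.26 to 0.0091 for Tomm40. None of these genes passed the threshold. Among members beyond 0.2 on the log2 scale, leaving out a mouse moved Hspa9 from -0.23 to -0.14 and Phb2 from -0.26 to -0.14 (both without control mouse 2) and Pam16 from -0.35 to -0.22 (without mAktDKO mouse 2), each by over 1.5 times. No paired analysis was possible because numbers 2 to 4 head the control columns and do not match the labelled mice.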

Other observations

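Genes of the stress response that follows disturbed import or mitochondrial translation were examined as a list of 15, of which 13 were tested. Psat1, an enzyme of serine synthesis, rose from 2.10, 2.92 and 3.40 CPM in control mice to 5.77, 6.59 and 6.10 CPM in mAktDKO mice, or 1.14 on the log2 scale (standard error 0.20, edgeR adjusted p = 0.0466). The call was lost without any one of the mAktDKO mice (0.115 to 0.22) or control mouse 3 (0.0911), where the value stayed between 1.08 and 1.18. It was the only one called, against 1.18% of all tested genes, 2 of the 13 were higher and 2 lower without overlap (14.6% and 16.6% of all tested genes), and the list's median log2 fold change was 0.24. Asns, asparagine synthetase, was higher without overlap (3.68, 4.79 and 4.11 against 1.96, 2.48 and 3.18 CPM, edgeR adjusted p = 0.106). DESeq2 gave no adjusted p for Psat1 or Asns. Ddit3, the transcription factor CHOP, was lower without overlap (4.57, 2.76 and 4.59 against 8.18, 6.49 and 5.44 CPM, edgeR adjusted p = 0.106). Atf4, the transcription factor that drives many of these genes, had 106 ± 9.91 against 103 ± 17.8 CPM (SD, n = 3 each).

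Of 8 regulators of nuclear genes for mitochondria, 1 was called, against 1.18% of all tested genes, 5 had a log2 fold change above 0, and the median was 0.06. Esrra, the nuclear receptor ERR alpha, fell from 86.2, 72.6 and 68.7 CPM in control mice to 53.1, 47.0 and 46.0 CPM in mAktDKO mice (log2 fold change -0.64, standard error 0.11, edgeR adjusted p = 0.0396). Its call was lost without any one of the mAktDKO mice (0.0966 to 0.22) or control mouse 3 (0.0842) and with library totals (0.0573), where the value stayed between -0.71 and -0.50. Ppargc1b, a coactivator, had 19.5, 17.4 and 19.7 against 25.8, 26.6 and 23.7 CPM without overlap (log2 fold change -0.43, edgeR adjusted p = 0.0598). Yy1, a zinc finger transcription factor, was higher without overlap (34.3, 36.8 and 36.8 against 29.4, 31.5 and 30.7 CPM, edgeR adjusted p = 0.13). Ppargc1a, a relative of Ppargc1b, had 82.0, 54.8 and 89.4 against 59.3, 68.1 and 64.0 CPM, with groups that overlapped. Nrf1 and Gabpa, whose families read the NRF1 and ETS cores, had 13.5 ± 1.52 against 10.9 ± 1.69 CPM and 45.2 ± 4.67 against 43.3 ± 1.54 CPM (SD, n = 3 each). The genes of both lists other than Psat1 and Esrra were singled out after their values were seen.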
